A study of Mus musculus with 71 samples.

Results

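The Delta_17_18_92 allele of the mouse miR-17~92 locus leaves miR-19 as the last seed family that the cluster can make, and its effect was read in the rest of the embryo, the tissue left after heart and tail bud were cut away. The members were all libraries of that tissue and of those genotypes: 2 libraries of Delta_17_18_92 and 3 of Wild-type, 5 of the 71 libraries in the series. By the labels, Delta_17_18_92 lacks miR-17 and miR-20a, as well as miR-18a and miR-92a-1, and keeps miR-19a and miR-19b-1, while Wild-type embryos carry the whole cluster. All embryos were C57BL/6, at embryonic day 9.5 with 20 to 22 somites. Other alleles from the same tissue served for single comparisons, with 3 libraries each: Full-KO lacks all 6 microRNAs, Delta_17_18 lacks miR-17, miR-20a and miR-18a, Delta_17 lacks miR-17 and miR-20a, Delta_18 lacks miR-18a, Delta_92 lacks miR-92a-1, and Delta_19 lacks miR-19a and miR-19b-1. The labels name no Cre or other driver for these alleles. The labels give no zygosity, embryo sex or number of embryos per library, and sex-linked RNA is given below.

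A microRNA guides an Argonaute protein to messenger RNAs, mostly through pairing of its seed, bases 2 to 8, with the 3′ untranslated region (3′ UTR), and the bound messages are then translated less and degraded sooner. Loss of a microRNA is therefore usually read as a modest rise of many messages that hold its seed match. The miR-17~92 cluster is processed from 1 primary transcript, Mir17hg. It is induced by MYC, is amplified in lymphomas and is needed for lung, heart, skeletal and B cell development in mice. Within it, miR-19 is known for its part in MYC-driven lymphoma in mice, and the miR-17 family for restraint of cell cycle and TGF-β pathway genes.

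The 6 mature microRNAs are shown because the 4 seeds, printed in capitals, define the gene sets that follow. They come from RefSeq (GRCm38.p6), where all lie on the plus strand of chromosome 14, from chr14:115043684-115043706 for miR-17 to chr14:115044476-115044496 for miR-92a. The first 3 and the last were deleted in Delta_17_18_92.
miR-17-5p: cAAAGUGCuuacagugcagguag
miR-20a-5p: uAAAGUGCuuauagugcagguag
miR-18a-5p: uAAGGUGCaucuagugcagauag
miR-19a-3p: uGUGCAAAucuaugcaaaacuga
miR-19b-3p: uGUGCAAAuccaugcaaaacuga
miR-92a-3p: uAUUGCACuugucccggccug
The seed of miR-18a differs from that of miR-17 at 1 base, and the miR-19 and miR-92 seeds stand apart from both. Other loci still encode the same seeds in every genotype here. RefSeq lists miR-106a, miR-20b, miR-106b, miR-93 and miR-6383 with the miR-17 seed, miR-18b with the miR-18 seed, miR-19b-2 with the miR-19 seed, and miR-25, miR-32, miR-363, miR-367, miR-92a-2 and miR-92b with the miR-92 seed.

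A target site was scored as an 8mer, the complement of bases 2 to 8 followed by A. The letters searched, on the transcribed strand only, were GCACTTTA for miR-17, GCACCTTA for miR-18, TTTGCACA for miR-19 and GTGCAATA for miR-92. A 7mer-m8 is the same match without the final A. Among 14397 tested genes with an annotated 3′ UTR, 4.40% held a miR-17 8mer, 1.79% a miR-18 8mer, 6.14% a miR-19 8mer and 2.79% a miR-92 8mer. Sites are printed for genes called higher that were among those with the smallest p values in their family. In the miR-18 family Smad2 had a smaller p than Xylt2, and its site is not printed. Each is 30 bases of the 3′ UTR, in the direction of the message, with the 8mer in capitals.
Fndc3b, miR-17 site (GRCm38, chr3:27416888-27416917, minus strand): acgagccgacaGCACTTTAttctctcgctc
Fndc3b, miR-92 site (GRCm38, chr3:27418553-27418582, minus strand): aagagggcattGTGCAATAgttagttgttt
Rev3l, miR-17 site (GRCm38, chr10:39799930-39799959, plus strand): ttctcctgctgGCACTTTAtttaggtggga
Man2a1, miR-92 site (GRCm38, chr17:64752612-64752641, plus strand): cttggtttaacGTGCAATAactaagcacat
Ptgfrn, miR-18 site (GRCm38, chr3:101042645-101042674, minus strand): ctttccaccaaGCACCTTAtctcgccacct
Xylt2, miR-18 site (GRCm38, chr11:94664528-94664557, minus strand): gccggggaattGCACCTTAcagacaacgga
Itgav, miR-19 site (GRCm38, chr2:83803737-83803766, plus strand): ccatcagtaagTTTGCACAggcacttagaa
Tgoln1, miR-19 site (GRCm38, chr6:72609125-72609154, minus strand): gcatggtatgcTTTGCACAtatcatgagcc
The miR-19 sites of Itgav and Tgoln1 are shown as a contrast, since the allele keeps miR-19. Both were chosen from genes called higher, so their rise was set by the choice. Itgav also holds a miR-92 8mer, and Tgoln1 2 miR-17 7mer-m8 sites.

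Messenger RNA was measured by sequencing, and levels are given as CPM, counts scaled to the same library total, after scaling by edgeR's TMM factors. The Delta_17_18_92 libraries held 22853209 and 23955585 counts, and the Wild-type libraries held 18984391, 21981291 and 21701705. Replicates differed by more than counting noise, with a chi-square per degree of freedom of 3.91 between the mutant libraries and 4.35 to 7.79 among Wild-type pairs. edgeR's common dispersion over the 23 libraries of this tissue gave a biological coefficient of variation of 6.47%.

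Before the results, 4 differences in make-up between these libraries have to be stated, and their part in the results was not tested. Heart-muscle RNA was higher in the mutant libraries: the summed CPM of 13 cardiomyocyte markers was 548 and 794 in the Delta_17_18_92 libraries, against 339, 434 and 352 in Wild-type, although the heart had been removed. All 13 markers had a positive log2 fold change (median 0.92), and 6 passed the test higher, against a background of 4.27% of all genes tested. Without Delta_17_18_92 replicate 2 none of the 13 passed, and without Wild-type replicate 1 or 3, 2 passed each time. None of the 13 was at 0 in any of the 5 libraries. Also, primitive erythroid markers summed to 2341 and 2264 CPM in the mutant libraries, against 2845, 4152 and 2784 CPM in Wild-type, with 0 of 14 past the edgeR threshold, 7 at an unadjusted p under 0.05 and 2 called lower by DESeq2. In addition, visceral endoderm and yolk sac markers summed to 66.6 and 70.1 CPM in the mutant libraries, against 584, 175 and 67.6 CPM in Wild-type, with 0 of 14 past the edgeR threshold, 0 at an unadjusted p under 0.05 and 0 called by DESeq2. Last, Xist, which is transcribed from the inactive X chromosome, stood at 6.82 and 8.24 CPM in the mutant libraries, against 6.16, 2498 and 5.06 CPM in Wild-type, so Wild-type replicate 2 alone was high. Together with the Y-linked genes Ddx3y, Eif2s3y, Kdm5d and Uty, it summed to 276 and 272 CPM in the mutant libraries. In Wild-type these sums were 283, 2499 and 306 CPM. Wild-type replicate 2 thus held almost no Y-linked RNA, the pattern of female tissue, and every other library had the male pattern. Sex was therefore not balanced between the groups. In whole tissue, fewer cells of a type and less RNA per cell cannot be told apart.

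To follow heart-muscle RNA through the results, 876 genes were called heart-enriched: genes at least 4-fold higher in Wild-type heart than in Wild-type rest of the embryo, past the same threshold. Of them, 141 (16.1%) rose and 5 fell in Delta_17_18_92, with a median log2 fold change of 0.23. These fold changes rest on the same Wild-type rest-of-embryo libraries that served to choose the set, so choice and rise are not independent. Among the other 16636 genes tested, 606 (3.64%) rose and 232 (1.39%) fell, with a median of -0.02. When the heart-enriched genes were left out after the fit and p values were adjusted anew, 593 genes rose and 221 fell. Of the tail bud, the other tissue cut away, 0 of 16 markers passed in edgeR, with 1 at an unadjusted p under 0.05 and 0 in DESeq2. Their sums were 139 and 128 CPM in the mutant libraries, against 145, 142 and 130.3 CPM in Wild-type.

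The host transcript of the cluster was higher in the mutant. Mir17hg (ENSMUSG00000089726, chromosome 14) stood at 453 and 494 CPM in the Delta_17_18_92 libraries, against 154, 161 and 159 CPM in the Wild-type libraries. Both mutant libraries lay above all Wild-type libraries by about the same distance. The log2 fold change was 1.58 ± 0.06 (SE; adjusted p = 5.07e-17), the smallest p of all genes tested. The mature microRNAs themselves were not measured, and reads of the host transcript do not show which hairpins it holds. In the other alleles, each set against the same Wild-type libraries, Mir17hg had a log2 fold change of 0.94 in Delta_17, 0.04 in Delta_18, 0.40 in Delta_92 and 0.89 in Delta_17_18. Delta_17_18_92 exceeded Delta_17_18, which had 312, 279 and 287 CPM, by 0.70 (adjusted p = 5.3e-09). Full-KO had 426, 434 and 463 CPM and differed from Delta_17_18_92 by -0.10 (adjusted p = 0.46).

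The comparison of Delta_17_18_92 with Wild-type asks which genes move when 3 of the 4 seed families are lost. Of 17512 genes tested, 984 (5.62%) passed an adjusted p of 0.05 in edgeR's quasi-likelihood test. There were 747 higher genes (4.27%) and 237 lower genes (1.35%), so that 75.9% of the calls were rises. In the fit of 17 libraries from 3 tissues that serves the tissue comparison, 324 genes (1.80%) passed for the same contrast, 315 of them higher and 9 lower. Changes were small: the median absolute log2 fold change of called genes was 0.31, with quartiles of 0.22 and 0.47, and 156 genes moved by at least 1.5-fold. Only 33 genes rose at least 2-fold, of which 20 were heart-enriched, and 6 fell that far, of which 2 were heart-enriched. In 746 of the 747 higher genes and in all 237 lower genes the mutant libraries lay wholly beyond the Wild-type libraries, while over all genes 17.6% lay wholly higher and 17.9% wholly lower. The count was 376 (335 higher, 41 lower) without Delta_17_18_92 replicate 2, 634 without Delta_17_18_92 replicate 1 and 611 without Wild-type replicate 1.

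Leading genes were ranked by fold change among called genes whose groups did not overlap and whose log2 CPM averaged 2 or more. Of the 15 leading higher genes, 10 were heart-enriched: Cnn1, Ankrd1, Acta1, Synpo2l, Tbx20, Actn2, Klf2, Tnnt2, Ryr2 and Dkk3. Most of these encode parts of the contractile or calcium-release machinery. Ryr2, the calcium release channel of heart muscle, stood at 24.4 and 31.9 CPM in the mutant libraries, against 13.5, 16.1 and 14.6 CPM in Wild-type (log2 fold change 0.93 ± 0.20, adjusted p = 0.0104). It passed no longer without Delta_17_18_92 replicate 2 (adjusted p = 0.18), and neither did Cnn1, Ankrd1, Acta1, Tbx20, Actn2 or Tnnt2. Synpo2l and Dkk3 passed in every fit of the rest-of-embryo libraries alone. Dkk3, a secreted protein of the Dickkopf family, is heart-enriched and also holds a miR-92 8mer. It stood at 23.7 and 28.6 CPM in the mutant libraries, against 12.6, 14.2 and 14.7 CPM in Wild-type, a log2 fold change of 0.92 ± 0.10.

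The other 5 leading higher genes were Mir17hg, F3, Fndc3b, Fbln5 and Adamts2. F3, tissue factor and the starter of blood clotting, stood at 11.3 and 11.6 CPM in the mutant libraries, against 6.11, 4.61 and 5.75 CPM in Wild-type (1.07 ± 0.13, adjusted p = 1.41e-06). It holds 1 miR-17 and 1 miR-19 8mer. Fndc3b, a membrane protein with fibronectin domains, stood at 148 and 151 CPM in the mutant libraries, against 76.0, 73.6 and 74.0 CPM in Wild-type (1.01 ± 0.05, adjusted p = 3.29e-16). Its 2 groups were far apart and each was tight, and both of its printed sites belong to lost families. Fbln5, an elastic fibre protein, and Adamts2, the protease that trims fibrillar procollagens, rose with 0.95 ± 0.24 and 0.92 ± 0.19. Neither holds an 8mer of any of the 4 families. Fbln5 lost its call without Wild-type replicate 1 or Delta_17_18_92 replicate 1, and Adamts2 without Delta_17_18_92 replicate 2. Both were at least 4-fold lower in Wild-type heart than in the rest of the embryo.

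The plot of 22 named genes sets each library beside the Wild-type mean, so that the spread within a group can be read against the step between groups.

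**Figure D1:**
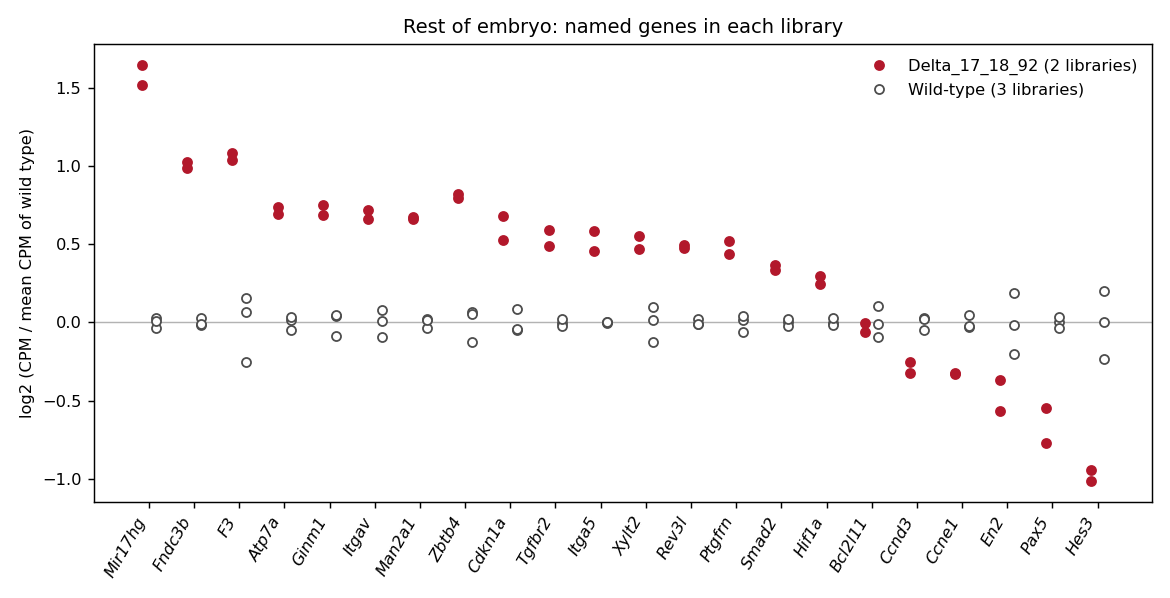
Level of 22 named genes in each rest-of-embryo library, as the log2 ratio of CPM to the mean CPM of the 3 Wild-type libraries; filled points are the 2 Delta_17_18_92 libraries and open points the 3 Wild-type libraries. Mir17hg lies highest, Bcl2l11 overlaps Wild-type, and En2, Pax5 and Hes3 lie below all Wild-type libraries.

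Genes were grouped by the 8mers in their 3′ UTR, and the share that rose was read for each lost family and for the kept one. Of 634 genes with a miR-17 8mer, 131 (20.7%) rose and 4 fell, with a median log2 fold change of 0.12. Of 402 genes with a miR-92 8mer, 85 (21.1%) rose and 2 fell, with a median of 0.11. Of 258 genes with a miR-18 8mer, 30 (11.6%) rose and 5 fell, with a median of 0.04. The 884 genes with a miR-19 8mer had a median of 0.0062, with 63 (7.13%) higher and 13 (1.47%) lower. Beside them, the 9381 genes with no match to any of the 4 families had a median of -0.03, with 252 (2.69%) higher and 154 lower. These are counts and medians without a test, and the share higher among all genes tested was 4.27%.

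Many UTRs hold matches to more than 1 family, so the sets were also read with genes that match a single family. Of 344 such miR-17 genes, 67 (19.5%) rose and 3 fell, with a median of 0.11. Of 204 such miR-92 genes, 32 (15.7%) rose and 1 fell, with a median of 0.07. Of 133 such miR-18 genes, 8 rose and 4 fell, with a median of 0.02. Of 495 genes with a miR-19 8mer and no other match, 15 (3.03%) rose and 10 (2.02%) fell, with a median of -0.02, close to genes with no match. Genes that hold 8mers of 2 or 3 of the lost families numbered 58, and 18 (31.0%) rose and 0 fell, with a median of 0.19. Genes with an 8mer of exactly 1 lost family numbered 1173, and 17.7% rose, with a median of 0.09. Weaker 7mer-m8 sites alone went with medians of 0.04 for miR-17, 0.02 for miR-18 and 0.03 for miR-92.

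Leaving out the heart-enriched genes changed this little: 1149 genes with an 8mer of a lost family remained, of which 199 (17.3%) rose and 10 fell. Read the other way, 226 of the 730 higher genes with an annotated UTR (31.0%) held an 8mer of a lost family, against 994 of 13444 genes not called (7.39%) and 11 of 223 lower genes (4.93%). The median UTR was 1848.5 bases in higher genes, 1641 in lower genes and 1317 in genes not called, so longer UTRs went with calls in both directions. With 7mer-m8 sites counted too, 61.8% of the higher genes held a match to a lost family, and the remaining higher genes held none in these UTRs.

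**Figure D2:**
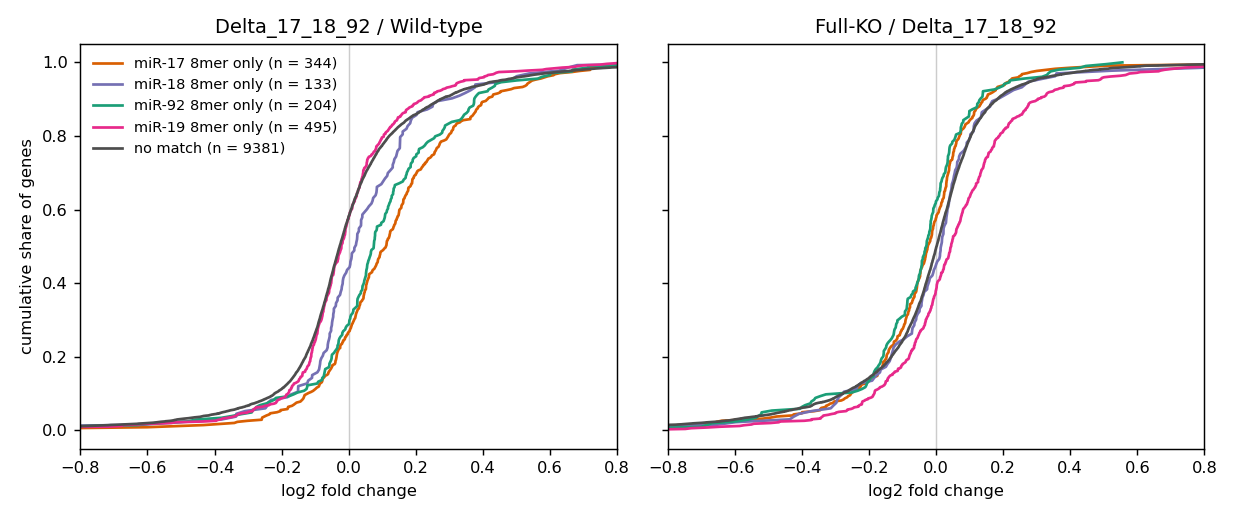
Cumulative share of genes (vertical axis) by log2 fold change (horizontal axis), for genes with an 8mer of 1 family and no match to the other 3, and for the 9381 genes with no match. Left, Delta_17_18_92 over Wild-type: the miR-17 and miR-92 curves lie to the right and the miR-19 curve follows the no-match curve. Right, Full-KO over Delta_17_18_92: only the miR-19 curve lies clearly to the right, with a median of 0.05 against -0.02 for miR-17 and -0.03 for miR-92.

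The same pattern was read in each library with a seed score, which is the median shift from the Wild-type mean of genes with an 8mer, less the same median for genes with no match, in log2 units. The miR-17 score was 0.145 and 0.130 in the Delta_17_18_92 libraries, and the miR-92 score was 0.125 and 0.132. The miR-18 score was 0.0758 and 0.0644, and the miR-19 score was 0.0392 and 0.0306. Over all 4 families the Wild-type libraries ran from -0.0250 to 0.0158, so both mutant libraries lay above all 3 Wild-type libraries on every score, including that of the kept family. In Full-KO the miR-19 score was 0.0755, 0.0806 and 0.0714, above both Delta_17_18_92 libraries. The miR-19 set includes genes that also match a lost family, and the single-family median of -0.02 given above leaves those out.

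**Figure D3:**
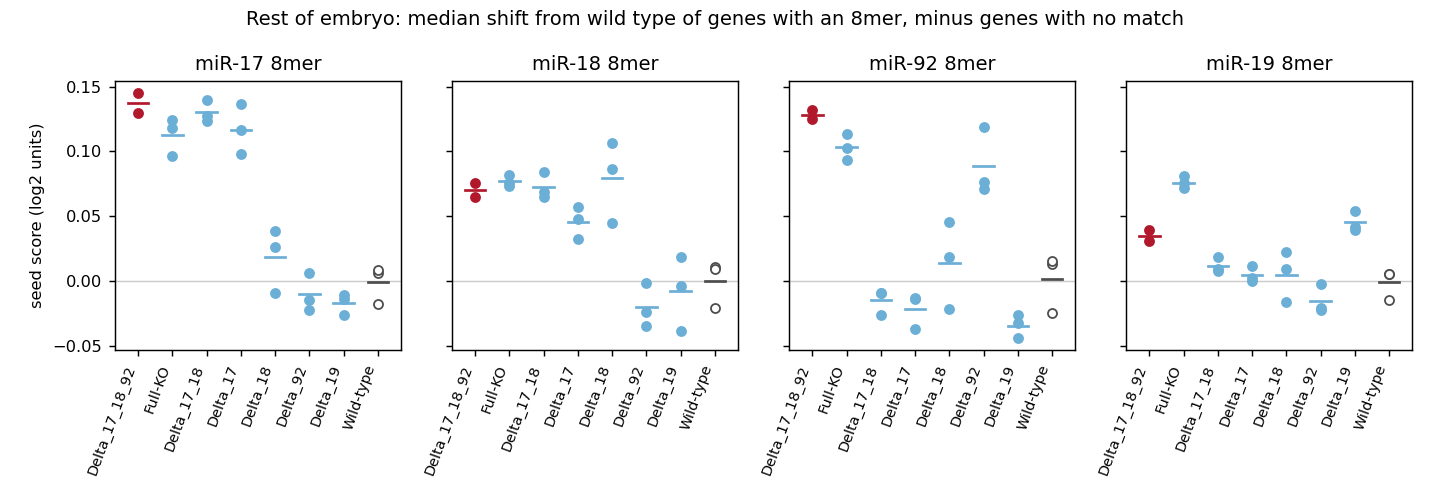
Seed score of each rest-of-embryo library in log2 units (vertical axis) for the 4 seed families (panels) and 8 genotypes, where a point is a library and a bar the mean of its group. The Delta_17_18_92 libraries lie above the Wild-type libraries for miR-17, miR-18 and miR-92, and between Wild-type and Full-KO for miR-19.

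For single genes, values of the other alleles are given beside those of Delta_17_18_92, and all of them share the 3 Wild-type libraries. Man2a1, a Golgi enzyme that trims N-linked glycans, stood at 148 and 150.1 CPM in the mutant libraries, against 95.3, 91.6 and 95.2 CPM in Wild-type. The groups did not overlap, and the log2 fold change was 0.67 ± 0.05 (adjusted p = 5.63e-10). Against the same Wild-type libraries it was 0.65 in Delta_92 and -0.03 in Delta_17. Itga5, the fibronectin receptor subunit, stood at 144 and 157 CPM in the mutant libraries, against 105, 104 and 105 CPM in Wild-type (0.52 ± 0.05, adjusted p = 3.19e-08). It had 0.48 in Delta_92 and -0.05 in Delta_17. Itgav, the alpha V integrin subunit, stood at 125 and 120.4 CPM in the mutant libraries, against 71.3, 76.7 and 80.3 CPM in Wild-type (0.69 ± 0.06). Both integrins hold a miR-92 8mer and lay well apart from Wild-type in both mutant libraries. Edem1, which sends misfolded glycoproteins to degradation, also holds a miR-92 8mer, and rose with 0.32 ± 0.04.

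Rev3l, printed above for its miR-17 8mer, was also higher in Delta_92 and not in Delta_17. This catalytic subunit of the translesion DNA polymerase zeta stood at 267 and 264 CPM in the mutant libraries, against 188, 192 and 189 CPM in Wild-type (0.49 ± 0.04, adjusted p = 2.64e-09). It had -0.01 in Delta_17 and 0.42 in Delta_92, and its UTR also holds a miR-92 7mer-m8. Atp7a, the copper pump mutated in Menkes disease, stood at 127 and 123 CPM in the mutant libraries, against 73.5, 76.8 and 77.7 CPM in Wild-type (0.72 ± 0.05, adjusted p = 4.22e-12). No 8mer or 7mer-m8 of the 4 families was found in its longest annotated UTR. It had 0.63 in Delta_92, -0.04 in Delta_17 and 0.07 in Delta_18.

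Kif23 and Ginm1 hold a miR-17 8mer and were higher in Delta_17 as well. Kif23, a kinesin of cytokinesis, stood at 195 and 194 CPM in the mutant libraries, against 152, 146 and 154 CPM in Wild-type (0.37 ± 0.04, adjusted p = 2.08e-07). It had 0.50 in Delta_17. Ginm1, a glycoprotein of the membrane, stood at 26.5 and 27.7 CPM in the mutant libraries, against 16.9, 15.5 and 17.0 CPM in Wild-type (0.72 ± 0.08), and had 0.50 in Delta_17. In both genes the mutant libraries were nearly equal and above every Wild-type library. Tgoln1, a cycling protein of the trans-Golgi network, rose with 0.42 ± 0.05 and had 0.39 in Delta_17.

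The 4 genes given next had the smallest p values among genes with a miR-18 8mer that were called higher. Their rise was therefore set by this choice. Xylt2, which starts glycosaminoglycan chains, stood at 64.8 and 61.2 CPM in the mutant libraries, against 47.3, 40.6 and 44.7 CPM in Wild-type (0.51 ± 0.07, adjusted p = 7.09e-06). It holds a miR-92 8mer too and had 0.35 in Delta_18 and 0.21 in Delta_92, which was not past the threshold. Ptgfrn, a membrane regulator of the prostaglandin F2 alpha receptor, stood at 202 and 214 CPM in the mutant libraries, against 151, 154 and 143 CPM in Wild-type (0.48 ± 0.05). It had 0.25 in Delta_17 and 0.21 in Delta_18, both past the threshold. Smad2, a receptor-activated transducer of TGF-β signals, stood at 103 and 101 CPM in the mutant libraries, against 80.6, 79.2 and 81.5 CPM in Wild-type (0.35 ± 0.04, adjusted p = 2.28e-06). It had 0.31 in Delta_18 and 0.24 in Delta_17, and holds sites of both families. Eri1, an exonuclease for histone messages and small RNAs, rose with 0.38 ± 0.05. Every gene of these 4 kept its call in each fit that left out 1 library.

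A list of 35 tested genes reported as miR-17~92 targets had 12 members higher and 0 lower, with a median log2 fold change of 0.14, against 4.27% higher and a median of -0.0115 over all genes. Of the 12, 7 hold an 8mer of a lost family. Cdkn1a, the p21 inhibitor of cyclin-dependent kinases, stood at 15.9 and 14.3 CPM in the mutant libraries, against 9.59, 9.62 and 10.5 CPM in Wild-type (0.60 ± 0.11, adjusted p = 0.000962). Its mutant values lay above all Wild-type values. Zbtb4, a repressor that binds methylated DNA, rose with 0.81 ± 0.13, and E2f1, a driver of S-phase genes, with 0.26 ± 0.05. Hif1a, the oxygen-sensing transcription factor, stood at 294 and 306 CPM in the mutant libraries, against 248, 245 and 253 CPM in Wild-type (0.27 ± 0.04). The other 8 were Tgfbr2, Bmpr2, Smad2, Itga5, Ccn2, Thbs1, Mylip and Klf2.

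A well-known target was among the genes that did not pass. Bcl2l11, the cell-death inducer BIM, stood at 77.9 and 74.9 CPM in the mutant libraries, against 73.2, 83.9 and 77.5 CPM in Wild-type (-0.03 ± 0.06, adjusted p = 0.81). The groups overlapped, although the gene holds 8mers of the miR-17 and miR-92 families. Without Wild-type replicate 2 its log2 fold change was 0.0238, so the sign of this small value turns. Of the BCL2 family, 1 of 15 members rose: Mcl1, which protects from apoptosis, with 0.22 ± 0.05, and its call was lost without Delta_17_18_92 replicate 2 (adjusted p = 0.07). Of 15 p53 response genes, Cdkn1a alone passed. The single calls of these 2 lists stand beside 4.27% higher and 1.35% lower over all genes.

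The list of TGF-β and BMP pathway genes held the largest number of rises of the lists read here. TGF-β and BMP ligands bind paired type I and type II receptors, which phosphorylate SMAD proteins that then enter the nucleus, and inhibitory SMADs and pseudoreceptors damp the signal. Of 35 members tested, 16 rose and 0 fell, with a median log2 fold change of 0.25 and 25 positive values, against 4.27% higher over all genes. Only 3 of the 16 hold an 8mer of a lost family, and 5 are heart-enriched (Tgfb2, Smad6, Bmp2, Bmp7 and Bambi), which leaves 11 that are not. The count was 8 without Delta_17_18_92 replicate 2, and 13 to 15 without each of the other libraries.

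Among the ligands, Bmp4 stood at 31.7 and 33.6 CPM in the mutant libraries, against 23.2, 23.9 and 24.7 CPM in Wild-type (0.45 ± 0.08, adjusted p = 0.000407). Its groups did not overlap, and its call was kept in every fit of the rest-of-embryo libraries alone. Tgfb2 stood at 35.1 and 42.3 CPM in the mutant libraries, against 27.8, 27.5 and 32.7 CPM in Wild-type (0.40 ± 0.08). Bmp2 stood at 12.4 and 19.4 CPM in the mutant libraries, against 12.1, 10.1 and 10.1 CPM in Wild-type (0.57 ± 0.16, adjusted p = 0.0316), so that replicate 2 alone was clearly high. Bmp7 rose with 0.22 ± 0.06, while Tgfb1 and Tgfb3, with 0.26 and -0.13, did not pass.

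Among the receptors, Tgfbr2, the TGF-β type II receptor, stood at 30.9 and 28.7 CPM in the mutant libraries, against 20.5, 20.2 and 20.8 CPM in Wild-type (0.54 ± 0.08, adjusted p = 3.05e-05). It holds a miR-17 8mer and had 0.48 in Delta_17. Bmpr2, the BMP type II receptor, stood at 65.5 and 60.1 CPM in the mutant libraries, against 44.2, 52.3 and 49.9 CPM in Wild-type (0.36 ± 0.07). In both receptors the mutant libraries lay above all Wild-type libraries. Tgfbr3, the co-receptor betaglycan, and Acvr1b, an activin type I receptor, rose with 0.27 ± 0.07 and 0.25 ± 0.06. Tgfbr1, Bmpr1a, Bmpr1b, Acvr1, Acvr2a and Acvr2b did not pass, all with slightly negative values down to -0.16 for Acvr2b.

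Of the SMADs, Smad2 (above) rose, and so did the inhibitory SMADs. Smad6 stood at 27.1 and 27.2 CPM in the mutant libraries, against 20.2, 20.4 and 20.5 CPM in Wild-type (0.41 ± 0.08, adjusted p = 0.00132). Smad7 stood at 30.2 and 30.0 CPM in the mutant libraries, against 21.9, 20.9 and 24.2 CPM in Wild-type (0.43 ± 0.09). In each the mutant libraries were nearly equal and apart from Wild-type. Smad1, Smad3, Smad4 and Smad5 did not pass, with values between -0.09 and 0.06. The pseudoreceptor Bambi rose with 0.39 ± 0.08 and lost its call without Delta_17_18_92 replicate 2. Extracellular and response genes also rose: Thbs1, which activates latent TGF-β, with 0.48 ± 0.10, Ltbp1, which holds it in the matrix, with 0.30 ± 0.06, and Ccn2, a matricellular growth factor, with 0.46 ± 0.10. The BMP response genes Id1, Id2 and Id3 did not pass, with 0.15, 0.02 and 0.12.

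**Figure D4:**
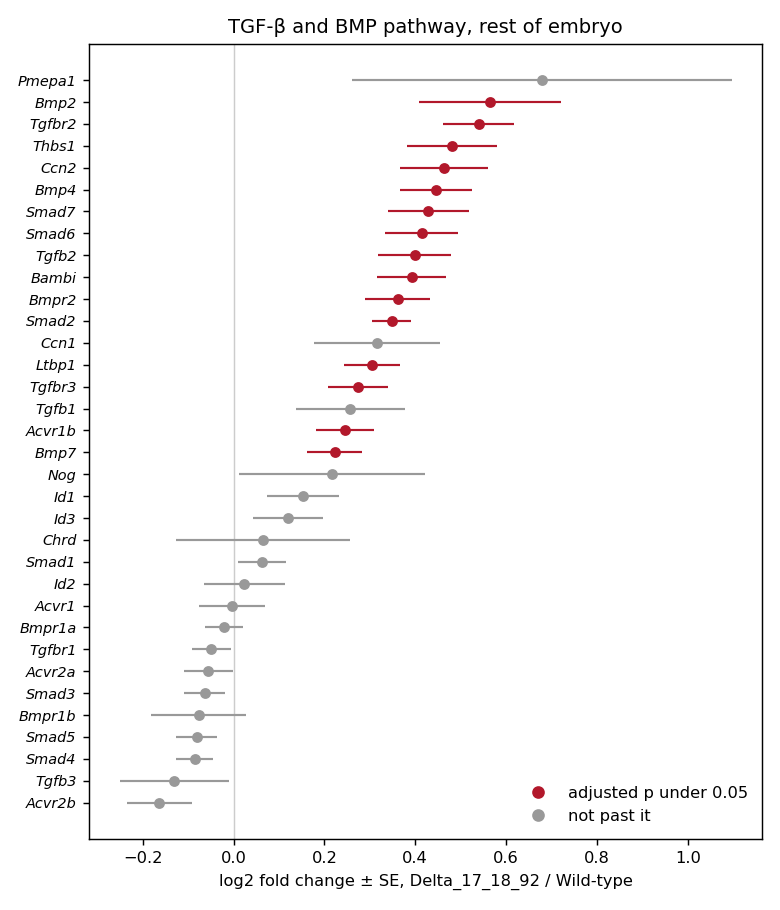
Log2 fold change ± SE of Delta_17_18_92 over Wild-type (horizontal axis) for 34 of the 35 tested TGF-β and BMP pathway genes (rows, sorted). Coloured points are the 15 genes past an adjusted p of 0.05, all positive, and grey points the other 19.

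Cell cycle and E2F genes moved in both directions. Of 35 tested, 4 rose (E2f1, Ccne2, Cdkn1a and Mcm3) and 5 fell (Ccnd3, Ccne1, Mcm2, Mcm5 and Mcm6), with a median of -0.01, against 4.27% higher and 1.35% lower over all genes. The E-type cyclins, partners of CDK2 at the start of S phase, went opposite ways. Ccne2 stood at 87.4 and 91.4 CPM in the mutant libraries, against 69.0, 68.8 and 69.8 CPM in Wild-type (0.37 ± 0.06, adjusted p = 8.09e-05). Ccne1 stood at 102 and 103 CPM in the mutant libraries, against 133, 126 and 127 CPM in Wild-type (-0.32 ± 0.05, adjusted p = 3.41e-05). Both were clear of Wild-type, and both kept their calls in every fit of the rest-of-embryo libraries alone. In the 17-library fit Ccne1 did not pass, with an adjusted p of 0.053. Ccnd3, a D-type cyclin, fell with -0.29 ± 0.05. Of the replicative helicase, Mcm3 stood at 521 and 516 CPM in the mutant libraries, against 447, 459.9 and 430.5 CPM in Wild-type, while Mcm5 stood at 458 and 449 CPM in the mutant libraries, against 540.1, 525 and 513 CPM in Wild-type. Proliferation genes Mki67, Top2a and Pcna did not pass, with -0.07, 0.01 and -0.02.

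Endothelial markers rose in part. Of 15, 6 rose and 0 fell, with a median of 0.20, against 4.27% higher over all genes, and none of the 6 is heart-enriched or holds an 8mer of a lost family. Pecam1, an adhesion molecule of endothelial junctions, stood at 49.8 and 51.7 CPM in the mutant libraries, against 38.0, 35.7 and 38.2 CPM in Wild-type (0.44 ± 0.07, adjusted p = 8.1e-05). Tek and Tie1, the angiopoietin receptor and its partner, rose with 0.31 ± 0.08 and 0.25 ± 0.06, Flt1 with 0.25 ± 0.07, Plvap with 0.21 ± 0.06 and Cdh5 with 0.19 ± 0.06. Kdr, the main VEGF receptor, had 0.06 and Cldn5 -0.02, and neither passed. The count was 1, Pecam1 being kept, without Delta_17_18_92 replicate 2, and 3 without Wild-type replicate 2. Below the 4-fold limit, all 6 were still higher in Wild-type heart than in the rest of the embryo, from 2.35-fold for Flt1 to 3.86-fold for Tie1, and so was Kdr (2.14-fold), while Cldn5 was lower there (0.105-fold). The part of heart tissue in these 6 rises was not tested.

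Other lists held few calls, to be read against 4.27% higher and 1.35% lower over all genes. Of 22 lipoprotein uptake and cholesterol genes, Mylip, a ubiquitin ligase for lipoprotein receptors, and Vldlr, a receptor for very low density lipoprotein, rose, with 0.49 ± 0.09 and 0.69 ± 0.17. A further 19 had positive values that did not pass. The median of this list was 0.28, and other alleles against the same Wild-type libraries had similar medians. These were 0.27 in Delta_17, 0.30 in Delta_18, 0.19 in Delta_92 and 0.20 in Delta_17_18, so the shift was not particular to Delta_17_18_92. Vldlr lost its call without Wild-type replicate 1 or 2 and without Delta_17_18_92 replicate 1. Among 18 hypoxia and glycolysis genes, Hif1a and Epas1 rose, and Epas1 (0.41 ± 0.11) lost its call in 4 of the 5 fits that left out 1 library. PI3-kinase and mTOR signalling (Irs1, 1 of 20), the MAPK pathway (Dusp2, 1 of 25) and the circadian clock (Clock, 1 of 16) had 1 rise each. Polycomb genes had 1 rise (Ezh1) and 2 falls (Cbx6 and Phc2) of 20. Hox genes (Hoxb1, 1 of 33), microRNA machinery (Tnrc6c, 1 of 14) and the MYC network (Odc1, 1 of 13) had 1 fall each. Without Delta_17_18_92 replicate 2 the calls of Irs1, Dusp2, Ezh1, Cbx6, Phc2, Hoxb1, Tnrc6c and Odc1 were all lost, with adjusted p from 0.078 for Irs1 to 0.37 for Tnrc6c. Immediate early genes had 0 calls of 16 in edgeR, with 3 at an unadjusted p under 0.05 and 1 fall in DESeq2. Limb bud and lateral plate (Tbx5) and gut endoderm (Shh) markers had 1 rise each, both lost when a library was left out, and Tbx5 is heart-enriched (11.3-fold). Early neuron, somite, neural crest, pharyngeal mesoderm, surface ectoderm and macrophage markers had 0 calls in edgeR and 0 in DESeq2, with 1, 5, 2, 2, 4 and 0 at an unadjusted p under 0.05.

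Lower genes were fewer. Tmem56, a multi-pass membrane protein, stood at 5.25 and 5.99 CPM in the mutant libraries, against 11.0, 13.1 and 10.4 CPM in Wild-type (-1.03 ± 0.18, adjusted p = 0.000934). It was the 1 gene of the 15 leading lower genes to keep its call in every fit of the rest-of-embryo libraries alone. It is also the only heart-enriched gene of the 15, at 7.24-fold in Wild-type heart over the rest of the embryo. Hes3, Pax5 and Gbx1, also among the 15, and En2 are transcription factors with known roles in neural patterning, and were grouped here after their values were seen. Hes3, a repressor that keeps the isthmus undifferentiated, stood at 5.55 and 5.82 CPM in the mutant libraries, against 12.9, 11.2 and 9.53 CPM in Wild-type (-0.97 ± 0.19, adjusted p = 0.00306). Pax5 stood at 4.28 and 4.99 CPM in the mutant libraries, against 7.32, 7.48 and 7.13 CPM in Wild-type (-0.65 ± 0.16). Gbx1 had 4.90 and 2.50 CPM in the mutant libraries, against 6.74, 6.48 and 5.57 CPM in Wild-type (-0.76 ± 0.19). En2, the engrailed factor of the same region and the only called member of the neural progenitor list (1 of 15), stood at 12.8 and 14.7 CPM in the mutant libraries, against 16.5, 21.7 and 18.8 CPM in Wild-type (-0.47 ± 0.10). The choice of Hes3, Pax5 and Gbx1 required both mutant libraries to lie below every Wild-type library. The mutant libraries of En2 also did, as for 17.9% of all genes. Hes3 lost its call without either mutant library (adjusted p = 0.057 and 0.054), Pax5 and En2 without replicate 1 (0.15 and 0.13), and Gbx1 without replicate 2 (0.46). None of the 4 passed in the 17-library fit, with adjusted p of 0.075 for Hes3, 0.17 for Pax5, 0.25 for Gbx1 and 0.27 for En2. None of the 4 holds an 8mer of the 4 families. The largest fall within the limits of level and overlap given above, Csf2rb (-1.24 ± 0.32), a shared receptor subunit for blood-cell cytokines, was lost without any single one of 4 libraries.

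Full-KO and Delta_17_18_92 differ by miR-19a and miR-19b-1, which Delta_17_18_92 keeps and Full-KO lacks. Of 17512 genes, 312 (1.78%) passed, 171 higher (0.976%) and 141 lower (0.805%) in Full-KO. Of the 495 genes with a miR-19 8mer and no other match, 44 (8.89%) were higher and 2 lower, with a median difference of 0.05 log2 units. Single-family miR-17 genes had 0 of 344 higher and 5 lower, with a median of -0.02, and miR-92 genes had 4 of 204 higher and 2 lower, with a median of -0.03. Both alleles lack those families. The lower genes were largely heart-enriched: 75 of 876 heart-enriched genes (8.56%) were lower in Full-KO. With these genes left out after the fit and p values adjusted anew, the count was 197 (147 higher, 50 lower). It was 52 without Delta_17_18_92 replicate 2, 138 without Full-KO replicate 2, 159 without Delta_17_18_92 replicate 1 and 194 without Full-KO replicate 1.

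The leading genes of this comparison stood at Wild-type level in Delta_17_18_92 or near it. Their sites are shown because they carry the seed that the allele keeps, again with the 8mer in capitals.
Suz12, miR-19 site (GRCm38, chr11:80033791-80033820, plus strand): ggctagcattgTTTGCACAaaaaattggtg
Kpna6, miR-19 site (GRCm38, chr4:129647426-129647455, minus strand): taattttttctTTTGCACAtttttcttgta
Suz12, a core subunit of the Polycomb repressive complex that methylates histone H3, stood at 248, 247 and 249 CPM in Full-KO, against 155 and 157 CPM in Delta_17_18_92, a difference of 0.67 ± 0.04 (adjusted p = 7.9e-14). Wild-type had 157, 163 and 163 CPM, close to Delta_17_18_92 (-0.04 ± 0.04, adjusted p = 0.58 for Delta_17_18_92 against Wild-type). Rnf11, a ubiquitin ligase subunit with 2 miR-19 8mers, stood at 69.8, 72.0 and 74.3 CPM in Full-KO, against 37.8 and 41.6 CPM in Delta_17_18_92, and Wild-type had 36.7, 42.7 and 41.7 CPM. Kpna6, a nuclear import receptor, stood at 232, 228 and 230.0 CPM in Full-KO, against 145 and 156 CPM in Delta_17_18_92. It was also a little higher in Delta_17_18_92 than in Wild-type, where it had 133, 131 and 129 CPM (0.20 ± 0.04, adjusted p = 0.0041). Uhmk1, a kinase that binds RNA-processing factors, stood at 252, 234 and 237 CPM in Full-KO, against 159.7 and 159.8 CPM in Delta_17_18_92, with no miR-19 match in its longest UTR. For these 4 genes the Full-KO libraries lay far above both Delta_17_18_92 libraries, and the calls held in every fit run.

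Leading genes on the other side were lower in Full-KO than in Delta_17_18_92. Tpm2, a tropomyosin and heart-enriched, stood at 40.9, 36.6 and 39.9 CPM in Full-KO, against 51.8 and 53.9 CPM in Delta_17_18_92 (-0.43, adjusted p = 0.00024). Efemp2, an elastic fibre protein, and Col6a1, a collagen VI chain, are not heart-enriched and had -0.49 and -0.60. Wild-type levels of all 3 lay nearer to Full-KO, with Tpm2 at 41.8, 42.5 and 42.1 CPM. Mylip and Clock hold 8mers of miR-19 and of a lost family. Mylip stood at 27.6, 29.0 and 30.2 CPM in Full-KO, against 20.5 and 18.0 CPM in Delta_17_18_92 (0.59, adjusted p = 0.00017), and Wild-type had 13.9, 15.3 and 11.9 CPM. Clock, with 1 miR-17 and 2 miR-19 8mers, stood at 83.1, 88.7 and 88.6 CPM in Full-KO, against 72.1 and 70.8 CPM in Delta_17_18_92 (0.28, adjusted p = 0.0076), and Wild-type had 58.0, 54.1 and 61.7 CPM.

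Delta_17_18_92 and Delta_17_18 differ by miR-92a-1. Of 402 genes with a miR-92 8mer, 79 (19.7%) were higher in Delta_17_18_92 and 0 lower, with a median difference of 0.11 log2 units. Of 17512 genes, 441 (2.52%) passed, 332 higher (1.90%) and 109 lower (0.622%) in Delta_17_18_92. Of the 204 single-family miR-92 genes, 43 (21.1%) were higher and 0 lower, with a median of 0.13. Single-family miR-17, miR-18 and miR-19 genes had medians of -0.01, -0.03 and -0.0065, with 3 of 344, 0 of 133 and 9 of 495 higher. Fndc3b stood at 148 and 151 CPM in Delta_17_18_92, against 85.4, 87.6 and 86.1 CPM in Delta_17_18 (0.79, adjusted p = 4.7e-13). Atp7a stood at 127 and 123 CPM in Delta_17_18_92, against 73.7, 77.0 and 74.8 CPM in Delta_17_18 (0.73), and Rev3l at 267 and 264 CPM, against 182, 177 and 182 CPM in Delta_17_18 (0.56). In all 3 the groups were far apart. The count was 99 without Delta_17_18_92 replicate 2 and 268 without Delta_17_18 replicate 2.

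Each of the other alleles was also read with the single-family sets, against the same Wild-type libraries as Delta_17_18_92. In Delta_17, 64 of 344 miR-17 genes (18.6%) rose and 0 fell, with a median of 0.12, against 1.43% higher over all genes. In Delta_92, 26 of 204 miR-92 genes (12.7%) rose and 0 fell, with a median of 0.11, against 0.537% higher over all genes. In Delta_18, 7 of 133 miR-18 genes (5.26%) rose and 0 fell, with a median of 0.09, against 0.268% over all genes. Beside these stand the 19.5%, 15.7% and 6.02% that rose in Delta_17_18_92. The miR-19 set, whose share higher in Delta_17_18_92 was 3.03%, had 47 of 495 genes (9.49%) higher in Delta_19, against 0.988% over all genes, and 62 of 495 (12.5%) higher in Full-KO, against 4.62%.

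Single-family miR-92 genes had medians of opposite sign in Delta_17_18_92 and Delta_17_18, again against the same Wild-type libraries. In Delta_17_18_92, 32 of 204 rose and 1 fell (median 0.07). In Delta_17_18, where miR-92a-1 is kept, 3 of 204 rose, against 2.81% over all genes, and 14 (6.86%) fell, against 1.63%, with a median of -0.06. Mir17hg was higher than in Wild-type in both alleles, as given above. For miR-19, the family that Delta_17_18_92 keeps, 10 of 495 genes (2.02%) were lower in that allele, against 1.35% over all genes.

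En2, Pax5, Hes3 and Gbx1 were also lower in Delta_17_18_92 than in Delta_17_18. En2 stood at 12.8 and 14.7 CPM in Delta_17_18_92, against 29.3, 27.2 and 27.3 CPM in Delta_17_18 (-1.02, adjusted p = 4.2e-08). Delta_17_18 was itself above Wild-type for En2 (0.55), so the 2 alleles lay on either side of it. Pax5 stood at 4.28 and 4.99 CPM in Delta_17_18_92, against 9.58, 7.29 and 8.49 CPM in Delta_17_18 (-0.86, adjusted p = 0.0012). Hes3 and Gbx1 differed by -0.92 (adjusted p = 0.011) and -0.83 (adjusted p = 0.01). Nr2f1, an orphan nuclear receptor of neural patterning, and Elovl2, a fatty acid elongase, had -0.30 and -0.31, and both lost their calls without Delta_17_18_92 replicate 2. Among endothelial markers, Tek stood at 55.8 and 65.7 CPM in Delta_17_18_92, against 44.9, 39.1 and 39.2 CPM in Delta_17_18 (0.57, adjusted p = 1.6e-05), and Pecam1 differed by 0.33.

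The combined allele was then set against the sum of the Delta_17, Delta_18 and Delta_92 effects, gene by gene. Of 17512 genes, 4 (0.0228%) departed from the sum, Eda2r higher and En2, Efcab7 and Cd59a lower than the sum. Eda2r lost its call in 11 of the fits that left out 1 library, with each Wild-type and each Delta_17_18_92 library among them. An unadjusted p under 0.05 was seen for 1077 genes, and DESeq2 called 7. En2 had -0.47 in Delta_17_18_92, beside 0.19 in Delta_17, 0.39 in Delta_18 and 0.22 in Delta_92. For Eda2r, Efcab7 and Cd59a the combined allele was near Wild-type (-0.16, -0.16 and -0.06) while Delta_18 and Delta_92 were not: Eda2r had -0.57 and -0.91, Efcab7 1.05 and 0.52, and Cd59a 0.85 and 1.14. The count was 0 without Wild-type replicate 1 and 2 without Wild-type replicate 3 or Delta_17_18_92 replicate 1. For the remaining genes a p above the threshold does not show that the effects add.

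Tail bud and heart of the same genotypes were read next, and their libraries may not be independent of those of the rest of the embryo. Same-numbered Wild-type libraries deviated together across tissues, with correlations of 0.27 to 0.69 between the rest of the embryo and tail bud or heart. Those of Delta_17_18_92 did less so, with 0.02 to 0.20, but its rest-of-embryo libraries mirror each other in this measure, which limits it. Whether tissues with the same number share embryos is not given in the labels, and the fit that follows has no term for replicate number. In a fit of the 17 Delta_17_18_92 and Wild-type libraries of the 3 tissues, 324 of 17993 genes (1.80%) passed in the rest of the embryo, 315 of them higher (1.75%). In tail bud 635 passed (3.53%), 498 of them higher (2.77%), and in heart 237 passed (1.32%), 191 of them higher (1.06%). Of the 315 genes higher in the rest of the embryo, 196 were also higher in tail bud, 62.2% of the list here and 39.4% of the tail bud list. With heart 89 were shared, 28.3% of the list here and 46.6% of the heart list. Fndc3b had 1.02 in the rest of the embryo, 1.00 in tail bud and 0.61 in heart, and Man2a1 had 0.68, 0.56 and 0.46 in that order of tissues. Mir17hg had 1.59, 1.71 and 1.76, and Tgfbr2 had 0.55, 0.39 and 0.50. Pecam1 had 0.45, 0.31 and 0.35, and its rise was called in each tissue.

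A test of the difference between tissues found 0 genes whose effect differed between the rest of the embryo and tail bud in edgeR, with 736 at an unadjusted p under 0.05 and 8 called by DESeq2. Against heart it found 6 (0.0333%), or 12 with a replicate block, all with a larger effect in the rest of the embryo: Hspb2, Myl9, Plxna4, Pygm, Ryr2 and Synpo2l. All 6 are heart-enriched, a set chosen with the same Wild-type libraries of both tissues. Myl9, a regulatory light chain of myosin, stood in the rest of the embryo at 59.0 and 72.0 CPM in Delta_17_18_92, against 36.0, 36.4 and 34.2 CPM in Wild-type. In heart it stood at 1389.7, 1250.0 and 1359 CPM in Delta_17_18_92, against 1218, 1343 and 1271 CPM in Wild-type. The mutant libraries were thus high in the rest of the embryo and overlapped Wild-type in heart, with a difference of effects of 0.82 ± 0.12. For Ryr2 the heart libraries had 1007, 974 and 868 CPM in Delta_17_18_92, against 1045, 1073 and 1035 CPM in Wild-type, and the difference was 1.09 ± 0.16. The count was 0 without Delta_17_18_92 replicate 2, Wild-type replicate 1 or Wild-type replicate 3 of the rest of the embryo.

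**Figure D5:**
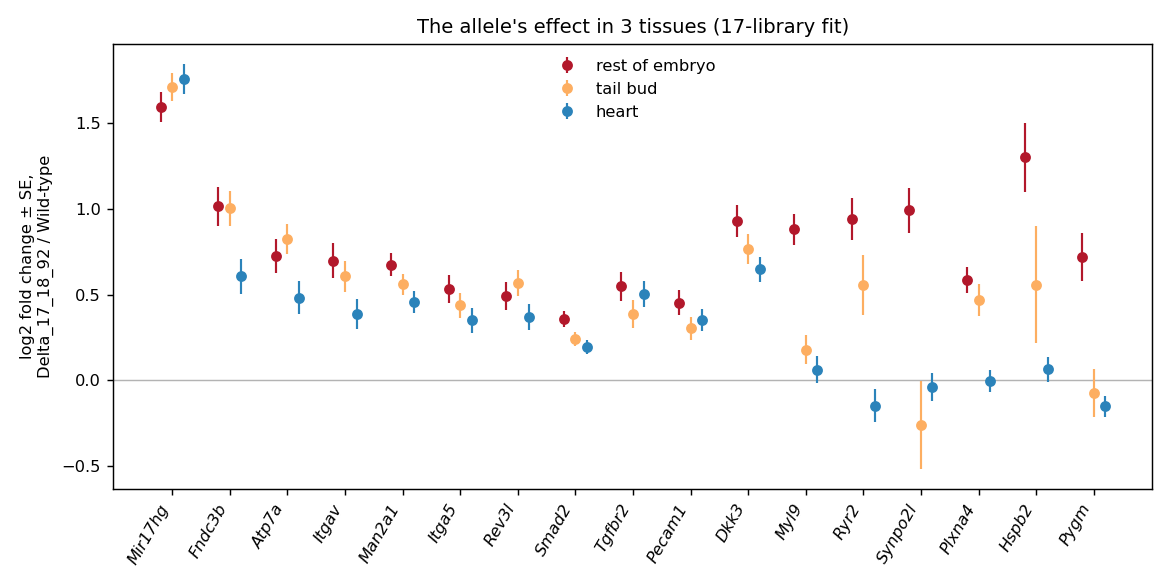
Log2 fold change ± SE of Delta_17_18_92 over Wild-type (vertical axis) for named genes in the rest of the embryo, tail bud and heart, from the 17-library fit. Mir17hg, Fndc3b, Man2a1 and Itga5 lie above 0 in all 3 tissues, and Myl9, Ryr2, Synpo2l, Hspb2 and Pygm lie well above 0 in the rest of the embryo and near 0 in heart.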

How the data were processed

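RNA was extracted in TRIZOL, made into TruSeq libraries and read as single 50-base reads, per the labels' protocols. The authors deposited raw whole-number counts of reads for each gene. STAR 2.3.0, featureCounts (Subread 1.4.2) and SAMtools 0.1.14 are the tools listed per the submitters' processing notes, and NCBIM37 and mm9 the builds. The annotation release, RNA selection, strand setting and treatment of multi-mapping reads are not given in the sources used here, so reads of overlapping or near-identical genes are uncertain. Gene symbols, 3′ UTRs (the longest per gene) and target sites came by gene ID from GENCODE M21 on the later GRCm38 build.

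All 23 rest-of-embryo libraries were fitted together in edgeR 4.0.16 (R 4.3.3), with 1 mean per genotype, filterByExpr on the genotypes, TMM scaling, robust quasi-likelihood tests, and Benjamini-Hochberg adjustment over all 17512 genes at 0.05. A second fit held 17 libraries of 3 tissues. Log2 fold changes are given ± SE, and SE was taken from the fold change and its F statistic. The labels call replicates biological, with no embryo numbers, so p-values measure the spread between these libraries. Between Delta_17_18_92 and Wild-type of this tissue, same-numbered libraries deviated with correlations of -0.16 and -0.07. The deviations of the mutant libraries from their mean are mirror images, so these values cannot settle whether replicate numbers pair genotypes. The seed score's log2 CPM used a prior count of 2.

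The allele, the gene lists and the rule for named genes were chosen with earlier results of these data known. The rule named Mir17hg, Bcl2l11 and Cdkn1a, up to 15 genes per direction by fold change (mean log2 CPM of at least 2, groups not overlapping), and up to 4 by smallest p for each seed family, further comparison and list. For a seed family, only genes called higher could be named. Other list members, and the sites of Suz12 and Kpna6, were added after their values were seen. A few genes that the rule named are not reported here. Alternatives were RLE factors, no filter on low counts, a mean log2 CPM of at least 3, DESeq2 1.42.0, a replicate block, fewer groups in the fit, and each library left out. The scripts were tested on simulated counts. Depth limits genes of a few CPM most.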

Additional observations from a re-analysis of the deposited data

Results flagged for a closer look

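In 6 genes the Delta_17_18_92 effect differed between the rest of the embryo and heart, by a test of the difference itself in the 17-library fit. In log2 units the differences were 1.2370 for Hspb2 (adjusted p = 0.045), 0.8200 for Myl9 (0.0189), 0.5893 for Plxna4 (0.044), 0.8710 for Pygm (0.045), 1.0877 for Ryr2 (0.0189) and 1.0305 for Synpo2l (0.0189). All 6 are heart-enriched genes whose mutant libraries lay above Wild-type in the rest of the embryo. Hspb2, a small heat shock protein of muscle, stood in the rest of the embryo at 1.22 and 2.12 CPM in Delta_17_18_92, against 0.726, 0.718 and 0.595 CPM in Wild-type. In heart it stood at 144, 138 and 139 CPM in Delta_17_18_92, against 132, 136 and 133 CPM in Wild-type. Pygm, muscle glycogen phosphorylase, stood in the rest of the embryo at 3.46 and 3.82 CPM in Delta_17_18_92, against 2.08, 2.32 and 2.21 CPM in Wild-type. In heart it stood at 270.4, 244 and 228 CPM in Delta_17_18_92, against 276, 278 and 269.9 CPM in Wild-type. Plxna4, a semaphorin receptor, stood in the rest of the embryo at 61.6 and 71.6 CPM in Delta_17_18_92, against 43.6, 43.7 and 45.8 CPM in Wild-type, and its heart libraries overlapped between genotypes. Summed cardiomyocyte markers moved the same way in the rest of the embryo, and their part in these 6 results was not tested.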

How the results depend on the processing

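The count of 984 genes stayed within 1.5 times under the settings tried on the 23-library fit other than a library left out, from 814 without heart-enriched genes to 1414 with no filter on low counts, while the 17-library fit of 3 tissues gave 324. RLE factors gave 992 (769 higher, 223 lower) and moved the median of all genes by 0.0035. Leaving out 1 library gave 376 to 848 for Delta_17_18_92 against Wild-type, 52 to 291 for Full-KO against it, 99 to 365 against Delta_17_18, 0 to 5 for the departure from the sum, 0 to 2 for the difference between rest of the embryo and tail bud, and, for that with heart, 0 to 18 over libraries of the rest of the embryo and 0 to 10 over heart libraries. With no filter these last 5 counts were 673, 952, 175, 2 and 18, and the causes of all such moves were not tested. For Full-KO, the count was 205 with only the 2 groups in the fit and 197 without heart-enriched genes (chosen after seeing the data). The departure from the sum had 2 genes at a mean log2 CPM of at least 3, 2 with only the groups compared and 7 in DESeq2. For tail bud DESeq2 gave 8. For heart, DESeq2 gave 61, a fit of the 2 tissues alone 37 and the replicate block 12. Whether replicate numbers pair genotypes within the tissue is not known, and the replicate block gave 1040, 333 and 523 genes for the first 3 comparisons. Across tissues, where same-numbered Wild-type libraries correlated, it gave 0 genes for tail bud. With 7mer-m8 sites added, the median fell to 0.0555 for miR-17 and 0.0543 for miR-92 genes. Without genes that match other families it was 0.0747 for miR-92 and -0.0220 for miR-19. Leaving out 1 library gave medians of 0.1139 to 0.1310 for miR-17, 0.0404 to 0.0593 for miR-18, 0.0916 to 0.1180 for miR-92 and 0.0043 to 0.0186 for miR-19 genes. Of the 73 named genes called, 28 kept their call in every fit of the rest-of-embryo libraries alone. Over the fits that left out 1 library, Bcl2l11 ran from -0.0789 to 0.0238 and Xist from -7.3743 to 0.4358, with the sign changed each time without Wild-type replicate 2. With 2 mutant libraries, genes of a few CPM are the least certain.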
